A study of Rattus norvegicus with 49 samples.

Results

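The kynurenine pathway, the main route of tryptophan breakdown, was followed through 7 of its genes in the livers of rats on 5 diets. They were *Tdo2*, *Afmid*, *Kmo*, *Kynu*, *Haao*, *Acmsd* and *Qprt*, out of 14217 genes with a probe set of their own on the array. They were picked by symbol with results of these data in view, and the contrasts in view were not recorded. The adjusted p-values below therefore set a change against the spread between rats and are not independent evidence that the pathway responds. Each gene was read from the probe set annotated with its symbol alone that had the highest mean log2 intensity over all rats.

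The animals were male Sprague Dawley rats, an outbred stock, 8 to 10 weeks old at the start, and 49 livers were measured, each on its own Affymetrix rat expression array. Group 1 had food ad libitum and no fast before necropsy, while group 2 had food ad libitum followed by an overnight fast. Rations were cut by 15% in group 3, by 30% in group 4 and by 60% in group 5, and these rats went through the same overnight fast. Livers were taken at day 4 or day 14 from different rats, 5 per group and day, with 4 in group 1 at day 14. The series text has every animal fasted, whereas the sample labels set group 1 apart as not fasted, and the labels were followed. No batch is named in the labels, so a batch that went with the day cannot be told apart from the day. Rats are numbered here in the order of deposit.

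In liver, *Tdo2* encodes the tryptophan dioxygenase that opens the indole ring and commits tryptophan to this route. The formamidase encoded by *Afmid* then releases kynurenine, the monooxygenase encoded by *Kmo* hydroxylates it, and kynureninase, encoded by *Kynu* and dependent on vitamin B6, cleaves the side chain to give 3-hydroxyanthranilate. *Haao* encodes the dioxygenase that opens this ring to an unstable semialdehyde. The semialdehyde either closes by itself to quinolinate, which the *Qprt* product carries into NAD synthesis, or is decarboxylated by the *Acmsd* product and is lost to NAD. *Tdo2* is a classical glucocorticoid-induced liver gene.

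Positions are those of the RefSeq annotation of assembly GRCr8. *Tdo2* lies at chr2:169567656-169585586, *Afmid* at chr10:103544822-103560408, *Kmo* at chr13:90089340-90121108 and *Kynu* at chr3:48188286-48338996. *Haao* lies at chr6:16598325-16617590, *Acmsd* at chr13:41752894-41798427 and *Qprt* at chr1:191148715-191164006. The genes therefore lie on 6 chromosomes, with *Kmo* and *Acmsd* both on chromosome 13. Which exons the probes cover is not given in the sources used here.

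The upstream sequences of 3 members are shown because *Kynu* carried the largest decrease, *Afmid* a rise at day 4 in fed rats and at 60% less food, and *Tdo2* the entry step. They come from RefSeq on GRCr8, run 5′ to 3′ on the strand of the gene and end at the base before the annotated gene. *Kynu* is on the plus strand at chr3:48188036-48188285, *Afmid* on the plus strand at chr10:103544624-103544821 and *Tdo2* on the minus strand at chr2:169585587-169585836. Capitals mark a motif match.
Kynu: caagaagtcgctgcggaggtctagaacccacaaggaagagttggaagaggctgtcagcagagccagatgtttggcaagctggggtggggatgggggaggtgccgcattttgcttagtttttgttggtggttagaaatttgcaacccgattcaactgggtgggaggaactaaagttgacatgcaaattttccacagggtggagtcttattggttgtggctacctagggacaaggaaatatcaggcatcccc
Afmid: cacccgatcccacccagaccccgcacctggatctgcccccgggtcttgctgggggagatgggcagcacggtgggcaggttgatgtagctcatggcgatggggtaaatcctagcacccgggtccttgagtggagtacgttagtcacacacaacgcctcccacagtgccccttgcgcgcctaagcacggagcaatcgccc
Tdo2: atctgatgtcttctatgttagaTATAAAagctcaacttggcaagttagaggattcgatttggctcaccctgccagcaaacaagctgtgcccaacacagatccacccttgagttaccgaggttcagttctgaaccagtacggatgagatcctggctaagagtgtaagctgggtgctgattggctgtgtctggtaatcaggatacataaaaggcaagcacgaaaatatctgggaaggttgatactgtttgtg

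A set of 6 motifs was searched on both strands of the 250 bases before the RefSeq start site of 6 members. Of these bases, 198 for *Afmid* and 69 for *Kmo* lie outside the annotated gene, and the *Afmid* sequence above is that stretch. They were TGTTCT (bound by the glucocorticoid receptor), AGGTCA (bound by nuclear receptors), CACGTG (the E-box), TATAAA (the TATA box), GTAAACA (the forkhead motif) and TGACG (the core of the cyclic AMP response element). *Tdo2* held TATAAA starting at base -228 from its start, and *Haao* held TGTTCT at base -145 and AGGTCA, on the opposite strand, at base -30. The windows of *Kynu*, *Afmid*, *Kmo* and *Qprt* held none of these letters, and *Acmsd* was not in the table. Among 33469 upstream windows, TATAAA was in 12.9%, TGTTCT in 17.5% and AGGTCA in 14.1%, so single matches of this kind are common.

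The 7 genes had mean log2 intensities from 8.21 for *Acmsd* to 13.53 for *Tdo2*, and no detection call comes with the values. The lowest *Acmsd* value, 6.77, was close to the sample medians. Intensities of different probe sets depend on the probes, so they do not rank the genes by abundance. The liver label was checked with 7 of 8 listed hepatocyte markers that could be read, all bright, including *Alb* at 14.99 and *Ttr* at 14.55. Median sample intensity was between 6.34 and 6.43, and the median correlation between rats of a group and day was between 0.9910 and 0.9935. No pair of arrays was close enough to be the same library, with a highest correlation of 0.9950. In whole liver, fewer cells of a type and less RNA per cell cannot be told apart.

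At day 14, against the fasted ad libitum rats of group 2, *Kynu* was lower and *Kmo* higher at all 3 levels of food restriction. *Afmid* was higher at 30% and 60% less food. At 60% less food *Acmsd* and *Tdo2* rose too, while the differences of *Haao* and *Qprt* fell just short of the threshold and passed it under several alternative settings. A gene was called where its Benjamini-Hochberg adjusted p over all 14217 genes was under 0.1 in limma, a linear model that shares information on the spread between genes. *Kynu* had the widest range over the 10 group and day means, 2.55 on the log2 scale or 5.86-fold, wider than that of 99.5% of all genes. *Acmsd* spanned 2.31 and *Afmid* 1.68, wider than 99.3% and 98.1% of genes. *Kmo* spanned 0.75, *Tdo2* 0.51, *Qprt* 0.39 and *Haao* 0.37, wider than 89.5%, 77.9%, 66.0% and 63.8% of genes. The members thus did not move as a block.

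**Figure D1:**
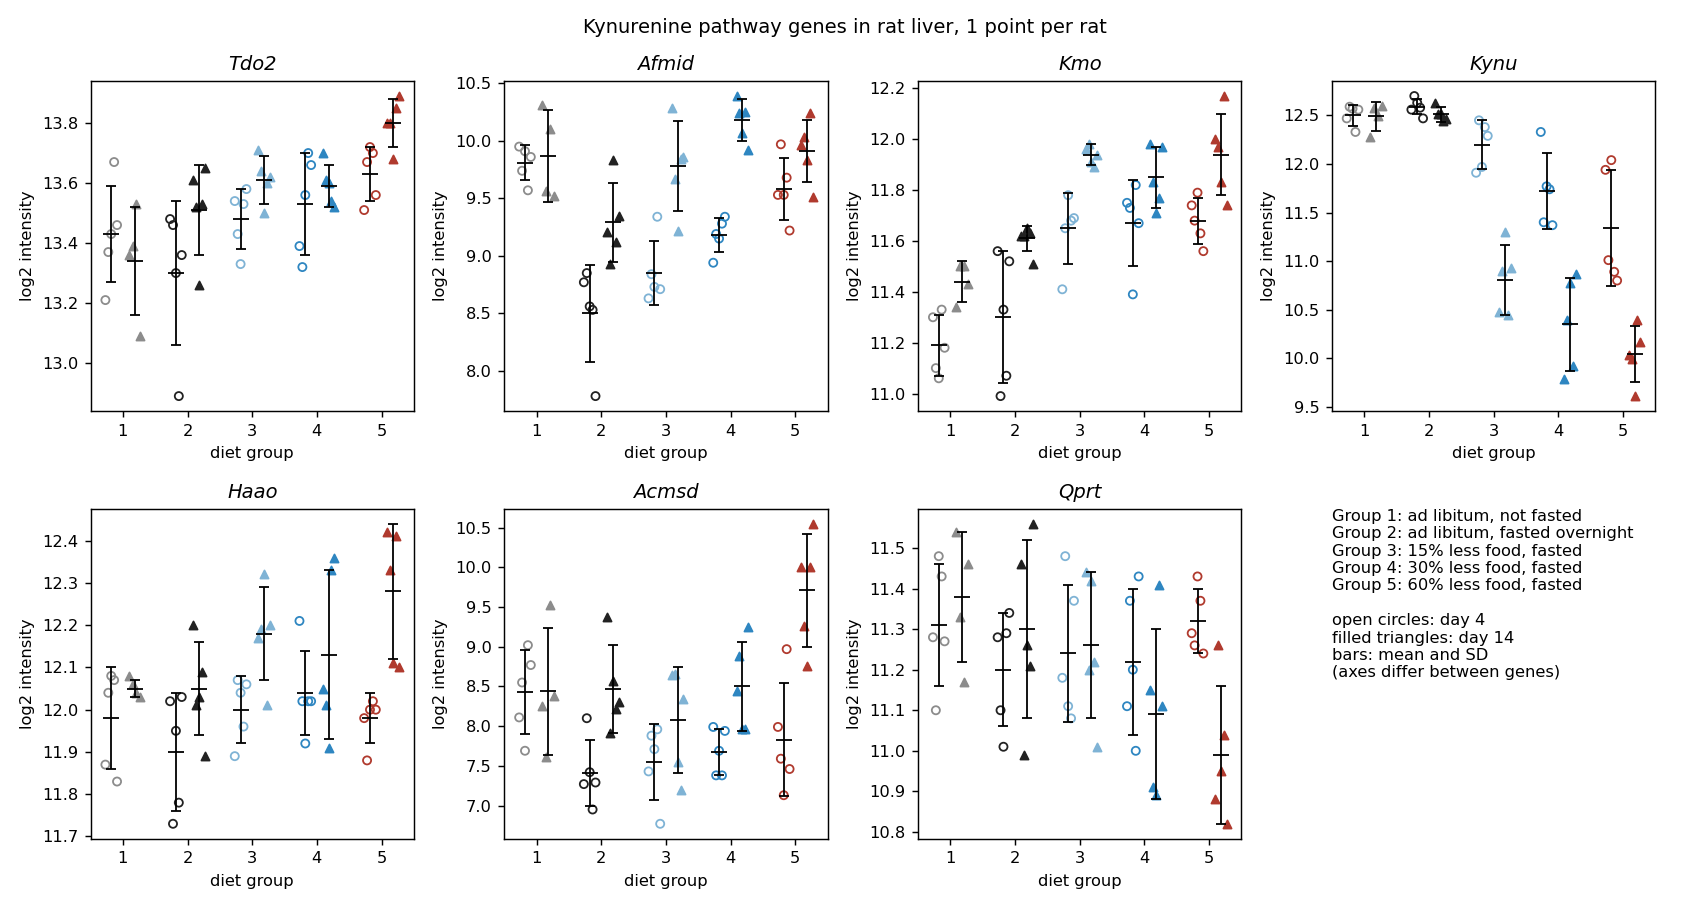
Log2 intensity of the 7 kynurenine pathway genes (y axes, scaled per gene) in each rat of diet groups 1 to 5 (x axis), with open circles for day 4, filled triangles for day 14 and bars for mean and SD. For Kynu, all rats of groups 1 and 2 sit at 12.28 or above, and all day 14 rats of groups 3 to 5 sit at 11.30 or below.

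The values of *Kynu* in the ad libitum rats were tight. The 5 fed rats of group 1 at day 4 had log2 intensities of 12.33, 12.47, 12.56, 12.57 and 12.59, and the 5 fasted rats of group 2 had 12.47, 12.56, 12.58, 12.63 and 12.70. At day 14 the 4 fed rats had 12.28, 12.49, 12.58 and 12.60 and the 5 fasted rats had 12.44, 12.46, 12.51, 12.52 and 12.63. Fed and fasted rats thus overlapped at both days. The difference of fed from fasted rats was -0.09 at day 4 (95% interval -0.23 to 0.06) and -0.03 at day 14 (95% interval -0.20 to 0.15), neither of them called by limma.

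In restricted rats the *Kynu* means at day 4 stepped down with the diet. Group 3 had log2 intensities of 11.91, 11.97, 12.29, 12.38 and 12.45, group 4 had 11.37, 11.40, 11.74, 11.77 and 12.33, and group 5 had 10.80, 10.89, 11.01, 11.94 and 12.04. All 3 groups lay wholly below group 2, but the restricted groups all overlapped each other, groups 3 and 5 included. Means with SD (n = 5) were 12.59 ± 0.08 in group 2, 12.20 ± 0.25 in group 3, 11.72 ± 0.39 in group 4 and 11.34 ± 0.60 in group 5. In group 5, 3 rats were at 11.01 or below and 2 at 11.94 or above.

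After 14 days the *Kynu* decrease was larger in each restricted group. Log2 intensities were 10.44, 10.48, 10.90, 10.93 and 11.30 in group 3, 9.79, 9.92, 10.39, 10.77 and 10.87 in group 4, and 9.61, 9.99, 10.03, 10.17 and 10.39 in group 5. No restricted rat came within the range of group 2, and groups 3 and 4, and groups 4 and 5, overlapped each other. Groups 3 and 5 did not overlap. Means with SD were 12.51 ± 0.08 in group 2, 10.81 ± 0.36 in group 3, 10.35 ± 0.48 in group 4 and 10.04 ± 0.29 in group 5.

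Against group 2 of the same day, the *Kynu* change was -0.39 at 15% less food on day 4 (SE 0.11, limma adjusted p = 0.222), which was not called. It was -0.87 at 30% less food (SE 0.15, limma adjusted p = 0.014) and -1.25 at 60% less food (SE 0.23, limma adjusted p = 0.0126). On day 14 the changes were -1.70 (SE 0.14, limma adjusted p = 5.8e-05), -2.16 (SE 0.19, limma adjusted p = 6.05e-05) and -2.47 (SE 0.12, limma adjusted p = 3.57e-07). The last is 5.56-fold lower and ranked 15 by size among all genes in that comparison. The 3 comparisons of a day share the rats of group 2. Each *Kynu* call against group 2 held when any single rat was left out.

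The growth of the *Kynu* decrease between the days was tested by the interaction of diet and day. The interaction was -1.31 for group 3 (SE 0.19, limma adjusted p = 0.00907), -1.30 for group 4 (SE 0.26, limma adjusted p = 0.0802) and -1.22 for group 5 (SE 0.28, limma adjusted p = 0.0468). Of all genes, 0.591%, 0.134% and 2.04% were called in these interactions, and *Kynu* was called in each. For group 1 the *Kynu* interaction was 0.06 (limma adjusted p = 0.959). The call for group 4 was lost in 13 of 20 omissions of a rat, with an adjusted p of up to 0.15. The rats were replicates 1 to 5 of group 2 at day 4, replicates 1 to 3 of group 2 at day 14, replicates 1, 4 and 5 of group 4 at day 4, and replicates 2 and 4 of group 4 at day 14.

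A linear trend over 0, 15, 30 and 60% less food in the fasted rats gave *Kynu* a slope per 10 percentage points of -0.21 at day 4 (SE 0.03, limma adjusted p = 0.00129) and -0.37 at day 14 (SE 0.06, limma adjusted p = 0.000111). From group 3 to group 5 the further change at day 4, -0.86 (SE 0.25, limma adjusted p = 0.186), was not called, and the ranges overlapped. It was called in 1 fit of all groups (adjusted p = 0.0242). At day 14 the change from group 2 to group 3 was -1.70, and the further change to group 5 was -0.77 (SE 0.17, limma adjusted p = 0.0279). Against the fed rats of group 1, a comparison in which both food and fasting differ and which was added after the values were seen, the change in group 5 was -1.16 at day 4 and -2.45 at day 14 (limma adjusted p = 0.00638 and 1.5e-06).

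**Figure D2:**
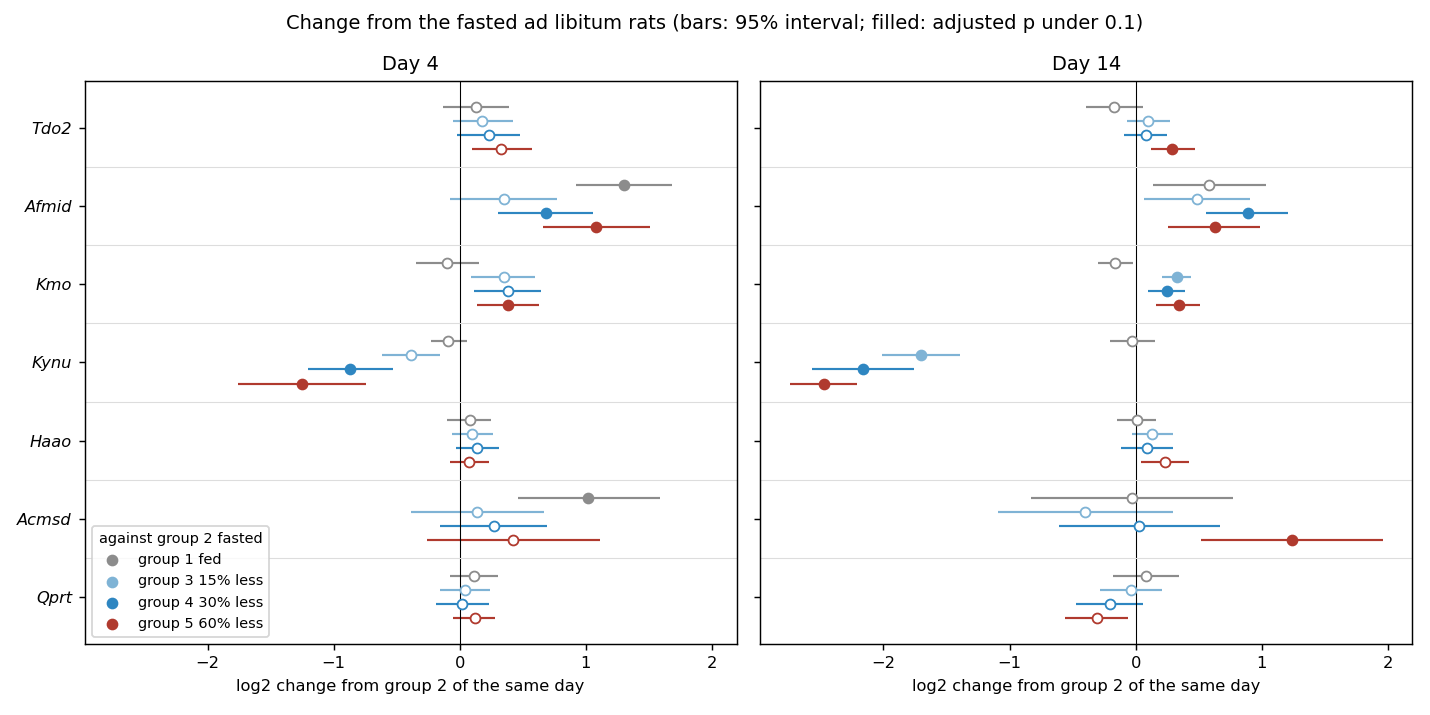
Log2 change of each gene from group 2 of the same day (x axes) for groups 1, 3, 4 and 5 at day 4 and day 14, with bars for the 95% interval and filled points for limma adjusted p under 0.1. Kynu reaches -2.47 in group 5 at day 14, whereas Haao stays between 0.01 and 0.23 in all 8 comparisons.

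*Afmid*, whose product makes free kynurenine, was higher at day 4 in fed rats, and at 30% and 60% less food, than in fasted ad libitum rats. At day 4 the fasted rats of group 2 had log2 intensities of 7.78, 8.53, 8.56, 8.77 and 8.85, and the fed rats of group 1 had 9.57, 9.74, 9.86, 9.91 and 9.95. Group 3 had 8.63, 8.71, 8.73, 8.84 and 9.34, group 4 had 8.94, 9.15, 9.19, 9.28 and 9.34, and group 5 had 9.22, 9.53, 9.53, 9.68 and 9.97. Fed rats, group 4 and group 5 each lay above every rat of group 2, while group 3 overlapped it and was not called (0.35, limma adjusted p = 0.575).

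The *Afmid* change from group 2 at day 4 was 1.30 in fed rats (SE 0.17, limma adjusted p = 0.000567), 0.68 in group 4 (SE 0.17, limma adjusted p = 0.0595) and 1.08 in group 5 (SE 0.19, limma adjusted p = 0.0102). Group 5 differed from the fed rats by -0.22 (95% interval -0.49 to 0.05, limma adjusted p = 0.268). The group 4 call was lost without replicate 4 of group 2 or without replicate 2, 3, 4 or 5 of group 4, with adjusted p between 0.108 and 0.13. The slope per 10 points less food was 0.18 (limma adjusted p = 0.000599). Group 5 was also above group 3 by 0.73 (SE 0.15, limma adjusted p = 0.0898), a call lost without replicate 1, 2, 3 or 5 of group 3 or replicate 2, 3 or 4 of group 5, with adjusted p of up to 0.199.

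At day 14 the *Afmid* values of group 2 were 8.93, 9.12, 9.21, 9.35 and 9.83, and those of the 4 fed rats were 9.52, 9.56, 10.10 and 10.31. Group 3 had 9.22, 9.67, 9.84, 9.86 and 10.29, group 4 had 9.92, 10.07, 10.24, 10.25 and 10.39, and group 5 had 9.51, 9.83, 9.96, 10.03 and 10.24. Group 4 alone among these lay wholly above group 2. *Afmid* rose by 0.89 in group 4 (SE 0.15, limma adjusted p = 0.00367) and by 0.63 in group 5 (SE 0.17, limma adjusted p = 0.0255), and in fed rats the difference of 0.58 was not called (SE 0.20, limma adjusted p = 0.107). All 3 *Afmid* probe sets gave a higher mean in group 5 than in group 2, by 0.63, 0.63 and 0.75 at day 14 and by 1.08, 0.86 and 1.11 at day 4.

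*Tdo2*, at the entry of the route, was bright in all rats and moved less than *Kynu*, *Acmsd* and *Afmid*. At day 14 the rats of group 2 had log2 intensities of 13.26, 13.52, 13.53, 13.61 and 13.65 and those of group 5 had 13.68, 13.80, 13.80, 13.85 and 13.89, which lay above every rat of group 2. The change was 0.29 (SE 0.08, limma adjusted p = 0.031). At day 4 group 2 had 12.89, 13.30, 13.36, 13.46 and 13.48 and group 5 had 13.51, 13.56, 13.67, 13.70 and 13.72. Those groups did not overlap either, with a difference of 0.33 (SE 0.11, limma adjusted p = 0.11) that was not called. The slope per 10 points less food was 0.05 on each day (limma adjusted p = 0.0533 at day 4 and 0.00506 at day 14), and the day 4 call was lost without replicate 4 of group 5 (adjusted p = 0.106).

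*Kmo*, which directs kynurenine towards NAD, was higher in all 3 restricted groups at day 14. Group 2 had log2 intensities of 11.51, 11.62, 11.62, 11.63 and 11.65. Group 3 had 11.89, 11.91, 11.94, 11.96 and 11.98, group 4 had 11.71, 11.77, 11.83, 11.97 and 11.98, and group 5 had 11.74, 11.83, 11.97, 12.00 and 12.17. The 3 restricted groups each lay above group 2 and overlapped one another. The rise was 0.33 in group 3 (SE 0.05, limma adjusted p = 0.00417), 0.25 in group 4 (SE 0.07, limma adjusted p = 0.0442) and 0.34 in group 5 (SE 0.08, limma adjusted p = 0.0165). The group 4 call was lost without its replicate 1 (adjusted p = 0.106).

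At day 4 *Kmo* means were 11.30 ± 0.26 in group 2, 11.65 ± 0.14 in group 3, 11.67 ± 0.17 in group 4 and 11.68 ± 0.09 in group 5 (SD, n = 5). The differences of 0.35 in group 3 and 0.38 in group 4 were not called (limma adjusted p = 0.314 and 0.135), although 1 fit of all groups called both (adjusted p = 0.0498 and 0.00494). The group 4 difference was also called without replicate 1 of group 2 or replicate 3 of group 4 (adjusted p = 0.0948 and 0.0938). All 3 groups overlapped group 2. The rise of 0.38 in group 5 was called (SE 0.11, limma adjusted p = 0.0835). That call did not hold in 8 of 10 omissions, namely replicates 2, 3 and 4 of group 2 and each of the 5 rats of group 5, with adjusted p of up to 0.188. Against the fed rats of group 1, *Kmo* was higher in group 5 by 0.49 at day 4 and by 0.50 at day 14 (limma adjusted p = 0.00142 and 0.00206).

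*Haao* varied least among the members. Its values at day 14 were 11.89, 12.01, 12.03, 12.09 and 12.20 in group 2 and 12.10, 12.11, 12.33, 12.41 and 12.42 in group 5, which overlapped. The difference of 0.23 was not called (SE 0.09, limma adjusted p = 0.11). It was called under 6 of 8 alternative settings, with adjusted p between 0.0255 in 1 fit of all groups and 0.0975 with dim genes left out. Leaving out replicate 1 of group 2, or replicate 3 or 5 of group 5, also brought the call (adjusted p = 0.0896, 0.0645 and 0.0733). Within group 5, *Haao* was higher at day 14 than at day 4 by 0.30 (SE 0.08, limma adjusted p = 0.0635), a call lost in 7 of 10 omissions with adjusted p of up to 0.149. The omitted rats were replicates 1, 2, 3 and 5 at day 4 and replicates 1, 2 and 4 at day 14.

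*Acmsd*, which takes the semialdehyde away from NAD, was the most variable between rats, with a pooled SD of 0.59 against 0.12 for *Haao*. At day 4 the fed rats had log2 intensities of 7.69, 8.11, 8.55, 8.77 and 9.02 and the fasted rats of group 2 had 6.95, 7.27, 7.29, 7.42 and 8.10. The groups overlapped in 1 rat of each, and the fed rats were higher by 1.02 (SE 0.26, limma adjusted p = 0.0196). At day 14 the 4 fed rats, at 7.61, 8.26, 8.38 and 9.53, spanned the range of group 2, with a difference of -0.03 (95% interval -0.83 to 0.77, limma adjusted p = 0.977). Among the fasted groups at day 4 the means ran from 7.41 ± 0.42 in group 2 to 7.83 ± 0.71 in group 5, and none of groups 3, 4 and 5 was called against group 2.

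At day 14 group 2 had *Acmsd* values of 7.92, 8.21, 8.30, 8.57 and 9.38, and group 5 had 8.76, 9.26, 10.00, 10.01 and 10.55. The rise was 1.24 (SE 0.33, limma adjusted p = 0.0255), or 2.36-fold, although the ranges overlapped. Group 3 had 7.20, 7.55, 8.34, 8.64 and 8.66, and lay wholly below group 5, by 1.64 (SE 0.36, limma adjusted p = 0.0249). Group 4, at 7.97, 7.97, 8.44, 8.89 and 9.25, sat within the range of group 2. Neither group 3 nor group 4 was called against group 2. In group 5 *Acmsd* was higher at day 14 than at day 4 by 1.89 (SE 0.37, limma adjusted p = 0.022). In group 2 the difference between the days was 1.07 (SE 0.26, limma adjusted p = 0.337), and the interaction for group 5, 0.82 (SE 0.49, limma adjusted p = 0.528), was not called. The *Acmsd* slope over the diets at day 14 was 0.24 per 10 points (limma adjusted p = 0.0104).

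*Qprt*, the gateway from quinolinate to NAD, changed less than *Kynu*, *Acmsd* and *Afmid*. Its day 14 values were 10.99, 11.21, 11.26, 11.46 and 11.56 in group 2 and 10.82, 10.88, 10.95, 11.04 and 11.26 in group 5, with overlap. The difference of -0.31 was not called (SE 0.12, limma adjusted p = 0.101), and the second *Qprt* probe set gave -0.30. It was called under 5 of 8 alternative settings, with adjusted p between 0.0247 for the mean of both probe sets and 0.0927, and without replicate 2 of group 2 or replicate 2 of group 5 (adjusted p = 0.0422 and 0.0514). The slope over the diets at day 14 was -0.05 per 10 points (limma adjusted p = 0.0408), a call lost without replicate 5 of group 5 (adjusted p = 0.107). In group 5, *Qprt* was lower at day 14 than at day 4, with a change of -0.33 (limma adjusted p = 0.0584), a call lost without replicate 1 or 3 at day 4 or replicate 1 or 5 at day 14 (adjusted p up to 0.157). RefSeq also lists the pseudogenes *Qprt-ps1* and *Qprt-ps2*, and signal shared with them was not separated.

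Counted over the pathway at an adjusted p under 0.1, 5 of 7 members were called in group 5 against group 2 at day 14, 4 higher and 1 lower, where 19.8% of all genes were called. All 7 were called in 1 fit of all groups, with dim genes left out, after renewed quantile normalization and with trended robust variances. The share of all genes called under those settings was not counted, so 19.8% is not their base. In group 4 at day 14, 3 members were called where 12.8% of genes were, and in group 3, 2 members where 6.54% were. At day 4, 3 members were called in group 5 (7.14% of genes) and 2 in group 4 (5.43% of genes). In group 3 at day 4 none was called by limma (0.253% of genes). There, 2 members had an unadjusted limma p under 0.05, as did 1488 of all 14217 genes. The median change of the members in group 5 at day 14 was 0.29 against a median of 0.00 over all genes.

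Fed rats of group 1 against fasted rats of group 2 had 2 of 7 members called at day 4, *Afmid* and *Acmsd*, both higher, where 21.3% of all genes were called. At day 14 none was called by limma, where 13.2% of genes were called. An unadjusted limma p under 0.05 was found for 2 members and for 3242 of all 14217 genes. The members' share at day 4 is close to that of all genes.

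Between the days, no member was called in the ad libitum groups by limma, with 0% of genes called in group 1 and 0.00703% in group 2. In group 1, 1 member had an unadjusted limma p under 0.05, as did 2125 of all 14217 genes. In group 2, 3 members had one, as did 1230 of all 14217 genes. The uncalled differences of group 2 were 0.79 for *Afmid* (SE 0.21, limma adjusted p = 0.343), with ranges that did not overlap, and 1.07 for *Acmsd* (SE 0.26, limma adjusted p = 0.337). In 1 fit of all groups the *Afmid* difference of group 2 was called (adjusted p = 0.0693). In group 3, 3 members differed (12.8% of genes), with *Afmid* higher at day 14 by 0.93, *Kmo* higher by 0.29 and *Kynu* lower at -1.39 (limma adjusted p = 0.014, 0.0314 and 0.00259). In group 4, 3 members differed (5.47% of genes), with *Afmid* higher by 0.99, *Kynu* lower at -1.37 and *Acmsd* higher by 0.83 (limma adjusted p = 0.00164, 0.0158 and 0.0907). The last call was lost without any rat of group 4 at day 4 and without replicate 1, 2 or 5 at day 14 (adjusted p up to 0.188). The changes of *Afmid* with the day in groups 3 and 4 were near that of group 2, with interactions of 0.14 and 0.21 (limma adjusted p = 0.941 and 0.859), and for *Acmsd* in group 4 the interaction was -0.24 (limma adjusted p = 0.915). Rises of *Afmid* and *Acmsd* with the day were thus not shown to be larger under restriction. In group 5, 4 members differed (6.71% of genes), with *Kynu* lower at -1.30 (limma adjusted p = 0.0206) beside *Acmsd*, *Haao* and *Qprt*.

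Over the slopes on food reduction, 3 of 7 members were called at day 4 (8.82% of genes) and 6 of 7 at day 14 (24.0% of genes). At day 14 *Haao* was the member without a call. A called slope does not mean even steps, and the fit of a line was not tested. Day 14 means of groups 2, 3, 4 and 5 were 11.61, 11.94, 11.85 and 11.94 for *Kmo*. They were 9.29, 9.78, 10.18 and 9.91 for *Afmid*, and 8.47, 8.08, 8.50 and 9.71 for *Acmsd*. *Kmo* in group 5 differed from group 3 by 0.01 (limma adjusted p = 0.976). The day 14 slopes per 10 points were 0.10 for *Afmid* (limma adjusted p = 0.0653) and 0.04 for *Kmo* (limma adjusted p = 0.0365). With 1 rat left out they stayed between 0.08 and 0.12 and between 0.04 and 0.05, but each call depended on single rats. The *Afmid* call was lost without replicate 1, 2, 4 or 5 of group 2 or replicate 4 of group 5 (adjusted p up to 0.142), and the *Kmo* call without replicate 4 of group 5 (adjusted p = 0.105). Group 5 against group 3 had 1 member called at day 4 (0.830% of genes) and 2 at day 14 (9.55% of genes). Group 5 against the fed rats had 2 called at day 4 (23.8% of genes) and 6 at day 14 (34.1% of genes).

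Within groups and days the members varied largely apart from one another. Over 49 rats and 21 pairs, deviations from the group and day means were related for *Kmo* and *Haao* (Pearson r = 0.52, permutation p = 0.00112, adjusted p = 0.0235). Spearman's rho for that pair was 0.46 (permutation p = 0.00532, adjusted p = 0.112), and r was 0.47 without the 2 rats farthest from the median of *Kmo*. No other pair passed after adjustment. Such shared deviations can come from the array as well as from the rat.

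Genes whose 10 group and day means followed those of a member were sought among 3151 genes. These had a range of at least 0.5 and a mean at or above 4.94, the 25th percentile of all probe set means. The closest to *Kynu* were *Galt* (r = 0.993), *Nek6* (r = 0.987) and *Dcaf11* (r = 0.986). *Galt* is a galactose enzyme, *Nek6* a mitotic kinase and *Dcaf11* a ubiquitin ligase adaptor. For *Acmsd* the closest were *Irf2bpl* (r = 0.943), *Spry1* (r = 0.942) and *Enpp3* (r = 0.934). For *Afmid* they were *Adss1*, of purine nucleotide synthesis (r = 0.963), *Tst*, a sulfur transferase (r = 0.950), and *Mknk2*, a kinase (r = 0.948). These are descriptions over 10 means that all genes share.

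The enzymes around the route were described from lists of genes. Of 10 measured enzymes of tryptophan and kynurenine side branches, 2 were higher and 1 lower in group 5 against group 2 at day 14 (8.88% of all genes were higher and 10.9% lower). *Ddc*, the aromatic amino acid decarboxylase, rose by 0.93 (limma adjusted p = 0.00372), and *Kyat1*, a kynurenine aminotransferase, by 0.57 (limma adjusted p = 0.0243). *Got2*, the mitochondrial aspartate aminotransferase, fell by 0.19 (limma adjusted p = 0.066). *Ido1*, the immune counterpart of *Tdo2*, had a mean of 4.92, below 4.94, the 25th percentile of all probe set means. *Ido2*, *Tph1*, *Tph2* and *Aldh8a1* were not analysed here.

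Of 11 genes of NAD synthesis and salvage, 4 were higher and 2 lower in group 5 against group 2 at day 14. Of all genes, 8.88% were higher and 10.9% lower there. *Nampt*, which recycles nicotinamide, rose by 1.75 (limma adjusted p = 0.0013). *Nnmt*, which methylates nicotinamide, rose by 1.02 (limma adjusted p = 0.00929), and *Nmrk1*, a nicotinamide riboside kinase, by 0.99 (limma adjusted p = 0.0103). *Nmnat3*, which makes the dinucleotide in mitochondria, fell by 0.54 (limma adjusted p = 0.0138). The mean log2 intensities of *Nmrk1* and *Nmnat3*, 6.58 and 6.62, were close to the sample medians, and no detection call comes with them. At day 4 the same list had 3 higher and 2 lower, where 3.56% and 3.58% of all genes were. The list of uptake carriers and receptors had 1 higher and 1 lower of 6 at day 14, beside 8.88% and 10.9% of all genes. They were *Slc16a10*, an aromatic amino acid carrier, at 0.80 and *Slc7a8* at -0.26. The vitamin cofactor list had 1 of 5 genes measured, without a call.

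**Figure D3:**
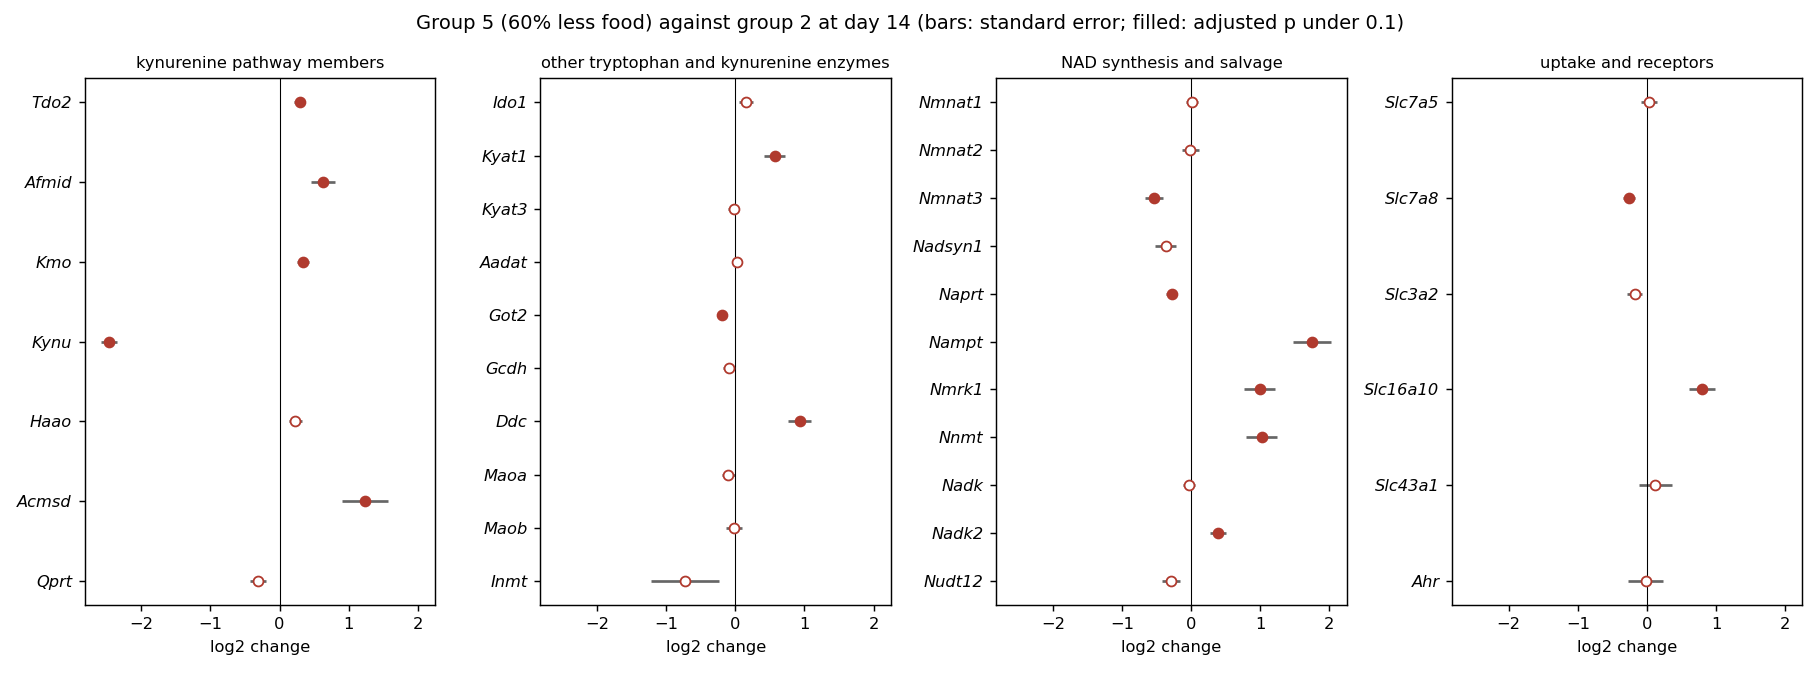
Log2 change in group 5 against group 2 at day 14 (x axes) for the 7 members and for 3 lists of neighbouring genes, with bars for the standard error and filled points for limma adjusted p under 0.1. Kynu lies at -2.47 and Nampt, of NAD salvage, at 1.75.

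Of 11 measured genes known to respond to glucocorticoids, glucagon or PPARA in the fasted liver, 8 were higher and none lower in group 5 at day 14, by limma, where 8.88% of all genes were higher and 10.9% lower. They included *Ppargc1a* at 1.83, *Per1* at 1.40, *Tat*, the tyrosine aminotransferase, at 1.24 and *Tsc22d3* at 1.13 (limma adjusted p = 0.00208, 0.00159, 0.00406 and 0.0889). The counts for this list at day 4 were 3 higher and 1 lower, where 3.56% and 3.58% of all genes were. Of 5 other amino acid breakdown enzymes, *Sds* at 1.48 and *Fah* at 0.21 rose and *Hgd* changed by -0.72 at day 14.

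Markers of other liver cells were read beside these changes, as the mean log2 intensity of each list (SD, n = 5). The Kupffer cell list, 8 of 10 genes measured, had 9.96 ± 0.20 (range 9.67 to 10.16) in group 2 and 9.84 ± 0.18 (range 9.54 to 10.01) in group 5 at day 14, with 1 gene lower. The hepatocyte list had 14.37 ± 0.04 and 14.34 ± 0.04, with 1 gene higher and 1 lower of 7. The T and NK cell list had 5.85 ± 0.11 and 5.67 ± 0.08, with 2 of 7 lower. The erythroid list, 3 of 4 measured, had 9.41 ± 0.21 (range 9.12 to 9.67) and 7.99 ± 0.31 (range 7.60 to 8.36), with 2 lower. Of 7 periportal hepatocyte markers 5 were higher, and of 6 pericentral ones 1 was higher and 1 lower, beside 8.88% of all genes higher and 10.9% lower in this comparison. The periportal list is not separate from the other lists. It shares *Cps1* and *Ass1* with the hepatocyte list, *Sds* and *Hal* with the amino acid breakdown enzymes, and *Pck1* with the fasted liver genes. Of the smaller lists, 1 of 2 B cell and 1 of 3 neutrophil markers were lower, 1 of 4 endothelial and 1 of 3 cholangiocyte markers were higher, and 0 of 6 stellate cell markers were called. At day 4, group 2 and group 5 had 9.78 ± 0.40 and 9.85 ± 0.21 for the Kupffer cell list and 9.36 ± 0.26 and 9.10 ± 0.26 for the erythroid list. The part of these markers in the changes of *Kynu*, *Afmid*, *Kmo*, *Acmsd* and *Tdo2* was not tested.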

How the data were processed

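RNA of 49 rat livers was hybridised to an Affymetrix rat expression array. The authors normalized the arrays by the Robust Multi-Array Average (affy 1.38.1, R 3.0.1; Affymetrix Expression Console is also named) and deposited linear whole-number intensities, from 8 to 33095, for 31042 probe sets. The log2 of each intensity was taken here. Of the probe sets, 20826 had 1 gene symbol, 436 several and 9780 none, and 20758 were found in RefSeq by Entrez identifier. The probe set with the highest mean stood for each of 14217 genes.

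Each comparison was fitted on its own groups with limma 3.58.1 (R 4.3.3), with Benjamini-Hochberg adjustment over all genes and a call at an adjusted p under 0.1. The methods used EBarrays, which was not installed, so limma took its place. Means are ± SD and SE is limma's. Pairs of members were tested with 100000 permutations within group and day. The 7 members were described throughout, beside the 3 genes most like each of the 3 most variable members, and at most 4 genes of each list. Members, lists and motifs were chosen with earlier results of these data known. The code was tested on simulated data. Per the methods rats shared housing in pairs or groups, and which rats shared a cage is not given, so cage could not be modelled. The number of arrays limits the precision. Alternatives were dim genes left out (mean below 4.94, the 25th percentile), 1 fit of all groups, the mean of probe sets, renewed quantile normalization, median centring, array weights, trended robust variances, a threshold of 0.05, and leaving out each rat.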

Additional observations from a re-analysis of the deposited data

Results flagged for a closer look

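The decrease of *Kynu* from group 2 was larger at day 14 than at day 4 in each restricted group, by a test of the difference itself, at -1.31 in group 3, -1.30 in group 4 and -1.22 in group 5 on the log2 scale. Of 70 sets of 4 or 5 values, 7 genes in 10 groups, 2 held a rat set apart from the rest, where chance gives about 1 in 20. For *Kmo* in group 2 at day 14, replicate 5 lay at 11.51 with the others between 11.62 and 11.65. For *Haao* in group 5 at day 4, replicate 2 lay at 11.88 with the others between 11.98 and 12.02.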

How the results depend on the processing

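Of 50 called changes of members, all kept their direction under 8 alternatives (400 values). Of the values, 384 kept the call, and 40 changes kept it in every alternative. A threshold of 0.05, dim genes left out, 1 fit of all groups and trended robust variances keep the log2 change itself. Direction could not reverse there, nor under the mean of probe sets for members with 1 probe set. Of 42 uncalled changes checked, 14 were called in at least 1 alternative. The number of members called was unchanged in 127 of 184 counts, changed by no more than 1.5 times in 40 (31 higher, 9 lower) and by more in 17, as follows. For group 5 against group 2 at day 14 it lay between 5 and 7 in all 8. With 1 fit of all groups it became 1 for group 3 against group 2 at day 4 (0 in the report), 1 for group 1 against group 2 at day 14 (0), 2 for group 5 against group 3 at day 4 (1) and 1 for the days of group 2 (0). For group 1 against group 2 at day 14 it was also 1 with dim genes left out, with the mean of probe sets, with array weights and with trended robust variances, and 2 after renewed quantile normalization. For group 5 against group 3 it was 0 at day 4 with the mean of probe sets, with quantile normalization and at a threshold of 0.05, and 4 at day 14 with the mean of probe sets. At a threshold of 0.05 it was 1 for group 4 against group 2 at day 4, 2 for the days of group 5 and 0 for the interaction of group 4, and the interaction of group 5 gave 2 with the mean of probe sets. The cause was not tested, and the share of all genes called was not counted under the alternatives.

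Leaving out 1 rat at a time, the number of members called ran from 1 to 3 for group 4 against group 2 at day 4, from 0 to 1 for group 1 against group 2 at day 14, from 0 to 2 for group 5 against group 3 at day 4, from 2 to 6 for the days of group 5, from 0 to 1 for the interaction of group 4 and from 1 to 2 for that of group 5. The difference of *Kynu* between groups 1 and 2 at day 14 ran from -0.06 to 0.04, and that of *Acmsd* between groups 5 and 3 at day 4 from -0.01 to 0.45. That of *Acmsd* between groups 1 and 2 at day 14 ran from -0.39 to 0.25 and was 0.04 with array weights. None of these was called. Sets of 4 or 5 arrays limit what can be called, and no background level comes with the intensities, so dim genes such as *Ido1* have no bound. No paired analysis was possible because each group and day used different rats.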
